A study of Mus musculus with 32 samples.

Results

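The secreted and membrane-bound matrix proteases of the Mmp and Adamts families and their Timp inhibitors were followed by RNA sequencing in the mouse cochlea after damaging noise. All genes listed in every library whose symbol is Timp1 to Timp4, Adamts with a number or Mmp with a number were taken. This gave 46 of the 39399 genes listed in both strains, made up of 4 Timp, 19 Adamts and 23 Mmp genes. Levels are given as TPM, a transcript abundance that corrects each gene's reads for its length and for the size of the library, so that levels of different genes can be set side by side.

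Matrix metalloproteinases (Mmp) are zinc enzymes that cut collagens, laminins and other matrix proteins as well as growth factors and receptors at the cell surface. Adamts enzymes carry thrombospondin repeats that hold them to the matrix, and their groups cut proteoglycans such as aggrecan and versican, trim procollagens or shape microfibrils. Timp proteins bind the active site of these enzymes, and Timp3 differs from the others in that it stays in the matrix and also blocks several Adamts enzymes. The cochlea holds much matrix of this kind, in the basement membranes, the spiral ligament and the tectorial and basilar membranes.

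Libraries came from mice aged 10 weeks that carried RiboTag, an allele that puts an HA tag on a ribosomal protein in cells with Cre recombinase. One strain was PrestinCre/+;RiboTagHA/+, in which the promoter of the outer hair cell motor protein Prestin drives Cre, and the other was Sox2Cre/+;RiboTagHA/+, in which Cre follows the supporting cell factor Sox2. The design text adds CBA to the names of both strains and gives both Cre forms as CreERT2, which tamoxifen switches on. The noise groups were exposed for 2 h at 105 dB SPL and taken 6 h or 24 h later, and control mice of both strains had no noise. From each cochlear homogenate the HA immunoprecipitate (IP, ribosome-bound RNA enriched for the tagged cells) and an aliquot of RNA of the whole cochlea (input) were sequenced. The Prestin strain had 3 libraries in each of its 6 groups. The Sox2 strain had 3 libraries in each 24 h group, 2 in each 6 h group and 2 in each control group. The labels speak of biological triplicates but do not tie a library to one animal. The Cre drivers limit what an IP stands for, since Sox2 is also active in glia, and RNA of untagged cells is carried along.

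Because TPM holds no trace of how deeply a library was read, depth is unknown here and values carry no counting interval. The 4 Sox2 libraries at 6 h listed fewer genes above 0 (15929 to 16966) than the others (17395 to 21239), and 27 to 30 of the 46 genes stood above 0 there, against 31 to 39 elsewhere. The 8 outer hair cell markers summed to 469 to 2134 TPM over the Prestin IPs, against 62.4 to 95.4 TPM over their inputs. Within the Prestin IPs that sum was 752 to 2134 TPM without noise, 469 to 770 TPM at 6 h and 716 to 826 TPM at 24 h. The 8 supporting cell markers summed to 2624 to 4056 TPM in the Sox2 IPs, against 1408 to 2513 TPM in their inputs. Supporting cell markers also reached 1726 to 2695 TPM in the Prestin IPs without noise, 2645 to 3081 TPM at 6 h and 3626 to 3813 TPM at 24 h, so that the 24 h IPs lay above all others. Of these 8 markers only Gjb2 passed there at 24 h in the test described below, and the median log2 difference of the 8 was 0.12. Further, 8 markers of Schwann cells and satellite glia reached 2651 to 8163 TPM in the Sox2 IPs, against 728 to 1131 TPM in the Sox2 inputs. The same glial markers reached 1130 to 2142 TPM in the Prestin IPs, against 597 to 1168 TPM in the Prestin inputs. In such bulk samples fewer cells of a type and less RNA per cell cannot be told apart.

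Of the 46 genes, 28 reached a mean of 1 TPM in at least 1 of the 12 groups, namely 4 Timp, 9 Adamts and 15 Mmp genes. The other 18 were counted as not expressed, and 3 of them (Mmp1a, Mmp1b and Mmp7) were listed at 0 in all 32 libraries. Just above that floor lay Mmp13, with a highest group mean of 1.09 TPM, and Mmp21, with 1.11 TPM, which passed through a single Sox2 IP control library at 2.23 TPM. Just below it lay Adamts17 with 0.979 TPM and Adamts3 with 0.943 TPM. The macrophage elastase Mmp12, the matrilysin Mmp7 and the interstitial collagenases Mmp1a and Mmp1b were thus among the genes not expressed.

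The family was led by few genes. By the mean over the 12 groups, the membrane-type protease Mmp14, which activates pro-Mmp2 together with Timp2, came first at 120.8 TPM. Timp2 followed at 77.6 TPM, Timp3 at 76.0 TPM, the membrane-type Mmp15 at 57.9 TPM, the proteoglycanase Adamts1 at 42.0 TPM and the gelatinase Mmp2 at 21.01 TPM. Next were the stromelysin Mmp11 at 15.8 TPM, the aggrecanase Adamts5 at 12.4 TPM, Timp4 at 10.5 TPM and Mmp28 (epilysin) at 9.97 TPM, then Timp1 at 9.77 TPM. The remaining 17 expressed genes averaged between 0.109 TPM (Mmp21) and 7.12 TPM (Adamts10). This order mixes both fractions: Mmp14 had the highest mean in all 6 IP groups but in 1 of the 6 input groups, where Timp2 led 4 and Timp3 led 1. The gelatinase Mmp9, often discussed in inner ear injury, averaged 1.37 TPM.

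Promoters are shown for the genes with the largest changes, Timp1 and Mmp3 at 24 h and Adamts1 at 6 h. RefSeq windows of the GRCm38.p6 build, 250 bases before to 50 after the start, were searched on both strands for AP-1 sites (TGANTCA), cAMP response elements (TGACGTCA), STAT sites (TTCNNNGAA) and the kB site. The Mmp3 window lies on chr9:7445572-7445871, plus strand. The Timp1 window lies on chrX:20869916-20870215, plus strand, at a gene that lies inside the synapsin gene Syn1 on the other strand. The Adamts1 window lies on chr16:85803064-85803363, minus strand. Capitals mark motif matches.
Mmp3: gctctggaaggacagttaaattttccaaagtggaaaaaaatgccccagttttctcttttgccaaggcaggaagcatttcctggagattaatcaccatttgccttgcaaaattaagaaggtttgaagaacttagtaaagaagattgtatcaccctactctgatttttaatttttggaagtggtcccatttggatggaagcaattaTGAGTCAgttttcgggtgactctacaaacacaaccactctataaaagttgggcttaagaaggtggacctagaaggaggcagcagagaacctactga
Timp1: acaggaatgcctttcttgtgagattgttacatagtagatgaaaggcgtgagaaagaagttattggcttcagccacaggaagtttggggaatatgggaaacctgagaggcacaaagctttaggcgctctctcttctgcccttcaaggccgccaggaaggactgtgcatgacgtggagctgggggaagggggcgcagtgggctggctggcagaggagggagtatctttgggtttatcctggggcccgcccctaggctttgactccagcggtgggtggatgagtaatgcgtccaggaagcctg
Adamts1: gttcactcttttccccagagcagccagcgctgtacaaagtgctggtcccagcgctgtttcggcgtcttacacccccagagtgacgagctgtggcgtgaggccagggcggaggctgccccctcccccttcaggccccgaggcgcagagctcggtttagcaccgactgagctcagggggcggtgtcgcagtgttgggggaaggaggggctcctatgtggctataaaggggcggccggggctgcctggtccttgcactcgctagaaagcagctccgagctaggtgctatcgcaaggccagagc
The Mmp3 window held 1 AP-1 site, from -46 to -40 relative to the start, and none of the other 3 motifs. No match to the 4 motifs was found in the windows of Timp1 and Adamts1, nor in those of Timp3 and Mmp14, which were higher in the inputs at 6 h. Among all 32851 windows, 7.81% held an AP-1 site, 8.30% a STAT site, 8.46% a kB site and 1.79% a cAMP response element. A match describes these letters only, and a window without one tells nothing about the factor.

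Timp1, the inducible soluble inhibitor, stood at 5.33 TPM or less in every control library and was higher at 24 h in all 4 fractions. In Prestin IPs its level was 1.65, 0 and 5.33 TPM without noise, 1.66, 1.97 and 2.34 TPM at 6 h and 19.4, 18.6 and 10.6 TPM at 24 h. Prestin inputs held 0.913, 2.93 and 1.76 TPM without noise, 3.84, 3.68 and 2.80 TPM at 6 h and 42.9, 26.2 and 22.6 TPM at 24 h. Every 24 h library of the Prestin strain thus lay above every control and every 6 h library of its fraction, and the 3 IPs at 6 h lay within the range of their controls.
In the Sox2 IPs it stood at 0.0762 and 4.22 TPM without noise, 0 and 6.35 TPM at 6 h and 24.0, 22.3 and 15.6 TPM at 24 h. The Sox2 inputs had 0.717 and 0.426 TPM without noise, 2.16 and 6.66 TPM at 6 h and 22.5, 39.1 and 28.0 TPM at 24 h. The 24 h libraries of this strain did not overlap with the earlier ones either.

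Differences were tested with limma on log2(TPM + 1), with p-values adjusted over all genes tested in that comparison and a threshold of 0.05. On that scale Timp1 in the inputs of both strains was higher at 24 h than without noise by 3.81 ± 0.28 (SE, adjusted p = 2.58e-06), with means of 30.2 TPM in 6 libraries at 24 h and 1.35 TPM in 5 control libraries. The inputs at 6 h averaged 3.83 TPM, 1.07 ± 0.29 above control (adjusted p = 0.0339). Leaving out any of 5 libraries ended the 6 h call (Prestin control 1, Prestin 6 h 1, Sox2 6 h 4 and both Sox2 controls), with adjusted p from 0.0625 to 0.0871. In the Prestin IPs at 24 h Timp1 averaged 16.2 TPM, against 2.33 TPM in the control IPs, a difference of 2.70 ± 0.60 (adjusted p = 0.0414). Every leave-out other than that of control IP 2 or control IP 3 ended this call, with adjusted p from 0.0545 to 0.137. The Sox2 IPs at 24 h averaged 20.6 TPM against 2.15 TPM in their controls, a log2 difference of 3.17 ± 1.01 that did not pass (adjusted p = 0.338).

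Summed levels of 8 macrophage markers were also above control at 24 h, at 379 to 405 TPM in the Prestin inputs against 146 to 166 TPM in their controls, and at 315 to 477 TPM in the Sox2 inputs against 187 to 203 TPM in theirs. The Prestin IPs at 24 h held 215 to 339 TPM of these markers against 87.7 to 132 TPM in control IPs, and the Sox2 IPs 213 to 230 TPM against 94.1 to 141 TPM. In the Sox2 IPs at 6 h the sum already stood at 202 and 247 TPM, while Timp1 was at 0 and 6.35 TPM. The other 6 h libraries, at 82.7 to 176 TPM, did not show such a level. None of the 8 markers was at 0 throughout a group, and 3 of 6 tested (C1qa, C1qb and Cd68) were higher in the inputs at 24 h. The part of these cells in the Timp1 difference was not tested. Syn1, in which Timp1 lies on the opposite strand, stood at 3.39, 3.04 and 3.96 TPM in the Prestin inputs at 24 h, against 5.66, 4.76 and 5.54 TPM in their controls. The Sox2 inputs went the other way, with 7.29, 7.29 and 6.75 TPM of Syn1 at 24 h, against 6.70 and 5.29 TPM in controls. Over both strains Syn1 did not pass (log2 difference -0.16, adjusted p = 0.806), and reads of Timp1 and Syn1 cannot be told apart with certainty, since the use of strand in counting is not given.

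**Figure D1:**
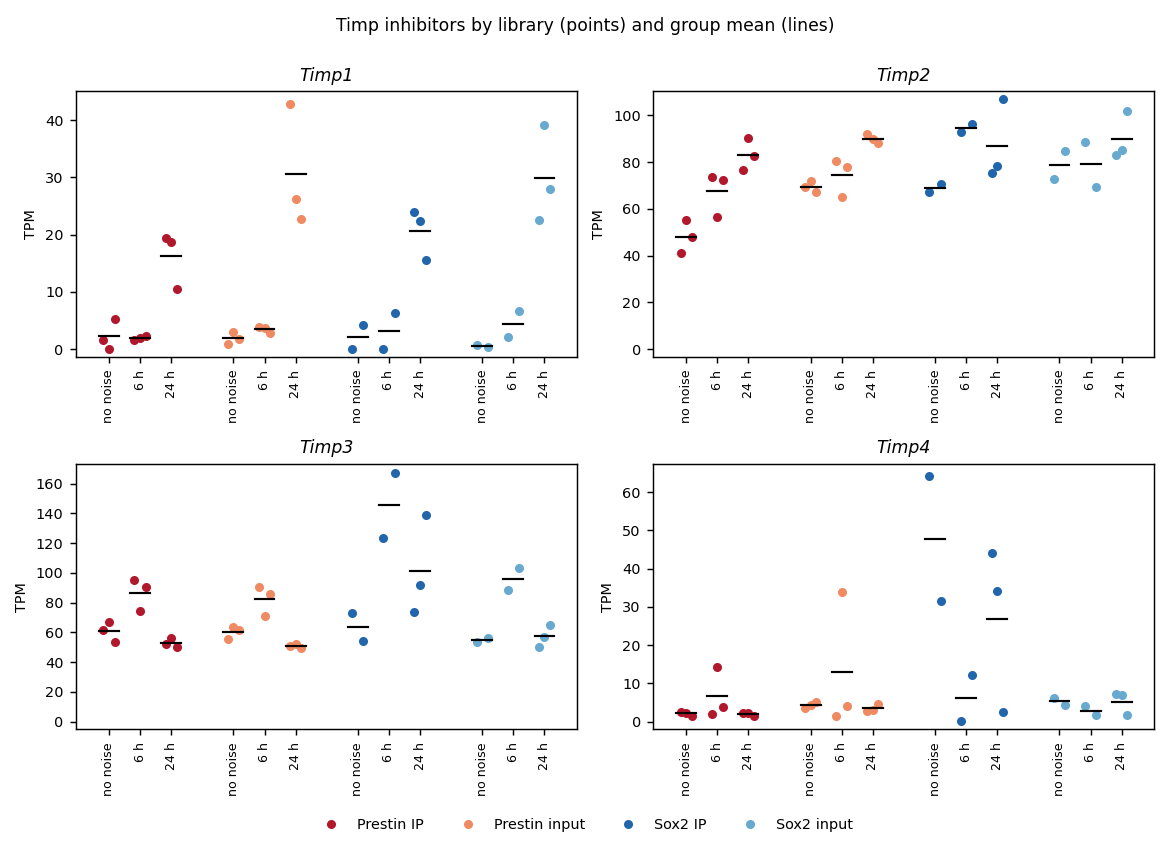
Levels in TPM (vertical axes, linear) of the 4 Timp inhibitors in each of the 32 libraries, for IP and input of the Prestin and Sox2 strains without noise and 6 h and 24 h after it; points are libraries and black lines group means. Timp1 lies at 10.6 to 42.9 TPM in all 24 h libraries and at most at 6.66 TPM in all others, whereas Timp4 is spread widely among replicates of the Sox2 IPs.

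Timp3, the matrix-held inhibitor of both families, was higher at 6 h than without noise in the inputs. Prestin inputs had 55.5, 63.6 and 61.5 TPM without noise, 90.8, 71.1 and 85.9 TPM at 6 h and 50.9, 52.2 and 49.7 TPM at 24 h. Sox2 inputs had 53.4 and 56.5 TPM without noise, 88.2 and 103 TPM at 6 h and 50.5, 56.9 and 65.3 TPM at 24 h. The 5 inputs at 6 h lay above all 5 control inputs, and their difference was 0.58 ± 0.09 (adjusted p = 0.00166).
The inputs at 24 h were lower than those at 6 h by -0.69 ± 0.09 (adjusted p = 0.000177) and did not pass against control over both strains (-0.11 ± 0.09, adjusted p = 0.659), although the 3 Prestin inputs at 24 h lay below all 3 of their controls. Timp3 lies inside Syn3 on the opposite strand, where Syn3 stood at 0.107 to 0.773 TPM over all libraries, and the use of strand is not given. Timp3 in the IPs had the same order of group means at 6 h and control, with 95.0, 74.1 and 90.4 TPM in Prestin IPs at 6 h against 61.7, 67.1 and 53.4 TPM in control IPs. Sox2 IPs held 123 and 167 TPM at 6 h against 73.1 and 54.4 TPM without noise. Groups did not overlap in either strain, but neither difference passed, with adjusted p = 0.0806 in Prestin IPs and 0.165 in Sox2 IPs.

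Timp2, the partner of Mmp14 in the activation of Mmp2, passed against control in the Prestin IPs at 24 h. Its levels there were 41.0, 55.4 and 47.9 TPM without noise, 73.5, 56.8 and 72.3 TPM at 6 h and 76.5, 90.2 and 82.7 TPM at 24 h. All 6 noise IPs thus lay above the 3 control IPs, and the 24 h difference of 0.78 ± 0.16 passed (adjusted p = 0.0361). The sums of supporting cell markers (3626 to 3813 TPM against 1726 to 2695 TPM) and of macrophage markers (215 to 339 TPM against 87.7 to 132 TPM) were likewise above control in these IPs at 24 h, and their part was not tested. Of the 8 supporting cell markers only Gjb2 was called (1.12), and the median log2 difference of the 8 was 0.12. Of the 9 leave-outs, 7 ended the 24 h call of Timp2 (adjusted p from 0.0544 to 0.13), all but those of control IP 2 and 6 h IP 2. Inputs at 24 h averaged 90.1 TPM against 73.3 TPM in control inputs, a log2 difference of 0.29 ± 0.08 that did not pass (adjusted p = 0.0666). The Prestin inputs at 24 h lay above all their controls, while the Sox2 inputs overlapped. Sox2 IPs held 67.2 and 70.7 TPM without noise, 93.1 and 96.2 TPM at 6 h and 75.2, 78.4 and 107 TPM at 24 h. All noise IPs of that strain thus lay above its controls too, without passing.

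Timp4 varied widely among replicates. Sox2 IPs held 64.2 and 31.5 TPM without noise, 0.0749 and 12.1 TPM at 6 h and 44.2, 34.2 and 2.48 TPM at 24 h. The 2 IPs at 6 h lay below both controls, while the 24 h IPs overlapped with both of these groups. The 6 h difference of -3.62 ± 1.61 did not pass (adjusted p = 0.31). In the Prestin strain, 6 h homogenate 2 stood apart, with 14.3 TPM in its IP and 33.8 TPM in its input, against 1.37 to 5.03 TPM in all other Prestin libraries. Timp4 lies inside Syn2 on the opposite strand, and Syn2 was also highest in that homogenate, with 10.9 TPM in its IP and 3.47 TPM in its input. Whether reads were counted by strand is not given, so reads of Timp4 and Syn2 cannot be told apart with certainty.

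The make-up of the inhibitors differed between the times. Timp1 made up 10.5 ± 2.9% of the summed Timp TPM in Prestin IPs at 24 h and 2.16 ± 2.52% without noise, and 17.2 ± 4.8% in Prestin inputs at 24 h and 1.35 ± 0.67% without noise (SD, n = 3 each). Sox2 inputs had 16.3 ± 3.9% at 24 h (SD, n = 3) and 0.539% and 0.291% in the 2 control libraries. Timp3 made up 34.3 ± 0.6% in Prestin IPs at 24 h and 53.6 ± 4.1% without noise, and 29.2 ± 1.9% in Prestin inputs at 24 h and 44.3 ± 1.2% without noise. The Sox2 IPs did not show that drop, with a Timp3 share of 35.7% and 33.9% without noise, 57.0% and 59.4% at 6 h and 33.9%, 40.5% and 52.6% at 24 h. The sum of all Timp genes was 154 ± 12 TPM in Prestin IPs at 24 h and 113 ± 10 TPM without noise, and 175 ± 12 TPM in Prestin inputs at 24 h and 136 ± 7 TPM without noise. These shares and sums are descriptions with no test.

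**Figure D2:**
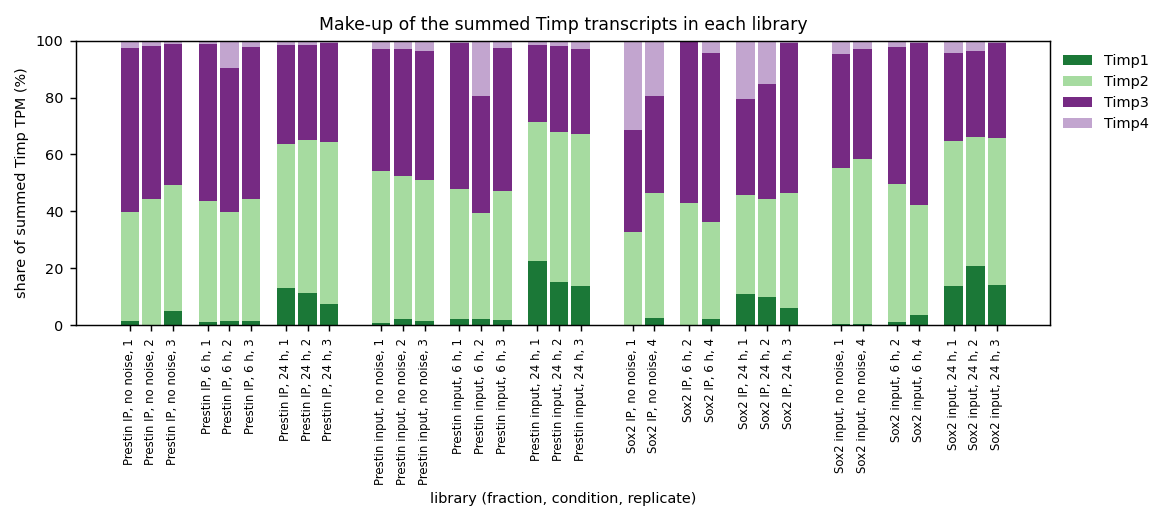
Share of the summed Timp TPM (vertical axis, percent) taken by Timp1, Timp2, Timp3 and Timp4 in each of the 32 libraries, ordered by fraction, condition and replicate number. The Timp1 band is widest in the 24 h libraries, between 5.91% and 22.7%, and the Timp4 band reaches 31.4% in a Sox2 IP control.

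Among the proteoglycan-cutting Adamts enzymes, Adamts1 (ENSMUSG00000022893, chromosome 16) was the gene with the clearest early change. Prestin inputs held 16.1, 20.1 and 15.0 TPM without noise, 88.2, 78.4 and 71.0 TPM at 6 h and 24.6, 22.0 and 16.9 TPM at 24 h. Sox2 inputs held 6.75 and 13.3 TPM without noise, 57.9 and 99.9 TPM at 6 h and 17.7, 17.2 and 19.5 TPM at 24 h. All 5 inputs at 6 h lay above all other inputs, and the difference from control was 2.44 ± 0.20 (adjusted p = 5.29e-06).
At 24 h the inputs were lower than at 6 h by -1.91 ± 0.19 (adjusted p = 1.92e-05) and stood 0.53 ± 0.19 above control without passing (adjusted p = 0.166). Prestin IPs had 24.1, 36.8 and 28.6 TPM without noise, 78.9, 67.1 and 81.1 TPM at 6 h and 26.7, 20.96 and 27.2 TPM at 24 h. Their 6 h libraries stood apart from both other groups, with a rise of 1.33 ± 0.19 over control (adjusted p = 0.0164). That call ended without control IP 3 (adjusted p = 0.0502) or without 6 h IP 1 (0.0709). Adamts1 in Prestin IPs was lower at 24 h than at 6 h by -1.57 ± 0.19 (adjusted p = 0.0347), a call that ended in 7 of 9 leave-outs (adjusted p from 0.0633 to 0.169), all but those of control IP 1 and control IP 2. Sox2 IPs had 16.96 and 30.2 TPM without noise, 66.2 and 118 TPM at 6 h and 27.2, 35.1 and 37.9 TPM at 24 h. The groups at 6 h and control did not overlap there, and the difference of 1.92 ± 0.39 did not pass (adjusted p = 0.0981).

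Adamts4 (aggrecanase, chromosome 1) was also higher at 6 h in the inputs, at a lower level than Adamts1. Prestin inputs stood at 0.255, 1.08 and 0.380 TPM without noise, 2.31, 5.46 and 2.07 TPM at 6 h and 1.505, 0.631 and 1.40 TPM at 24 h. Sox2 inputs stood at 0.342 and 2.19 TPM without noise, 3.14 and 2.41 TPM at 6 h and 2.65, 3.58 and 1.08 TPM at 24 h. The 6 h inputs lay above their own strain's controls, and the difference over both strains was 1.18 ± 0.30 (adjusted p = 0.0268). It no longer passed without Prestin control 1, Prestin control 3 or Sox2 control 1, with adjusted p from 0.0641 to 0.0794. At 24 h Adamts4 in the inputs stood 0.58 above control without passing. Its difference between 24 h and 6 h did not pass either.
In the IPs Adamts4 was uneven, at 3.12, 4.40 and 3.64 TPM in Prestin IPs at 6 h against 0.813, 0 and 4.02 TPM in controls. Sox2 IPs at 6 h had 0.0252 and 7.39 TPM against 5.15 and 11.1 TPM without noise. Neither difference passed (adjusted p = 0.198 and 0.474).

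Adamts9, a versican-cutting enzyme, was found mainly in the IPs. Prestin IPs had 0.769, 1.62 and 1.44 TPM without noise, 3.60, 3.001 and 1.91 TPM at 6 h and 3.05, 2.20 and 1.92 TPM at 24 h. Sox2 IPs had 0.345 and 0.715 TPM without noise, 1.11 and 1.77 TPM at 6 h and 1.54, 1.19 and 1.81 TPM at 24 h. All noise IPs lay above the control IPs of their strain, yet no difference passed, with log2 differences from 0.58 to 0.75 and adjusted p from 0.129 to 0.478. The inputs stayed between 0.0755 and 0.391 TPM, below the floor for testing.

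The remaining Adamts genes of this group did not pass in a noise comparison. Adamts5 had 20.7 and 11.8 TPM in Sox2 IPs without noise, 17.5 and 33.1 TPM at 6 h and 23.2, 27.9 and 45.7 TPM at 24 h. Prestin IPs of all conditions held 11.98 to 31.3 TPM of it and inputs of both strains 2.59 to 5.60 TPM. Adamts10, which acts on microfibrils, had 14.6, 11.3 and 9.07 TPM in Prestin IPs at 24 h, all below the 20.9, 22.9 and 19.9 TPM of the control IPs (log2 difference -0.83), while Sox2 IPs at 24 h had 11.8, 7.46 and 7.97 TPM, all above the 4.75 and 6.37 TPM of theirs (0.60). The difference between these 2 responses was -1.44 ± 0.53 and did not pass (adjusted p = 0.198).

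**Figure D3:**
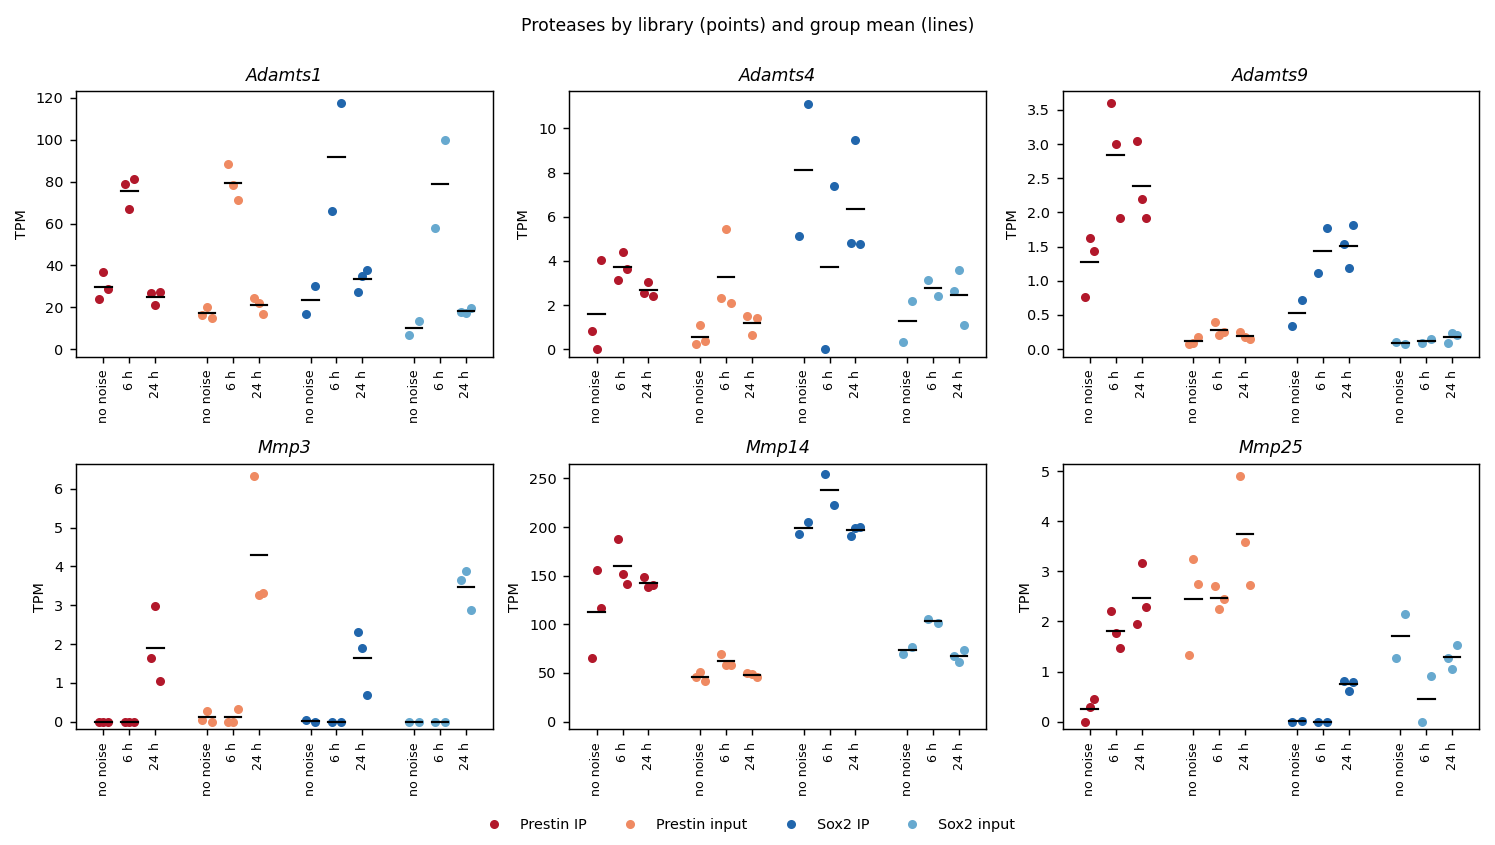
Levels in TPM (vertical axes, linear) of 6 proteases in each of the 32 libraries, for IP and input of both strains without noise and 6 h and 24 h after it; points are libraries and black lines group means. Adamts1 lies between 57.9 and 118 TPM in all 6 h libraries and at most at 37.9 TPM in all others, and Mmp3 lies at 0.695 TPM or more in all 24 h libraries and at most at 0.329 TPM in all others.

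Among the Mmp genes, the stromelysin Mmp3 (ENSMUSG00000043613, chromosome 9), which cuts many matrix proteins and activates other Mmp zymogens, was a late gene. Prestin inputs had 0.0514, 0.273 and 0 TPM without noise, 0, 0 and 0.329 TPM at 6 h and 6.33, 3.26 and 3.32 TPM at 24 h. In the Sox2 inputs both control and both 6 h libraries were listed at 0, and the 24 h libraries had 3.66, 3.88 and 2.89 TPM. All 24 h inputs lay above all others, and the difference from control was 2.19 ± 0.15 (adjusted p = 1.4e-06). Mmp3 entered this test through the 24 h libraries alone, so that it differed is given by the filter, and with no filter the adjusted p was 2.98e-06.
Prestin IPs held Mmp3 at 1.64, 2.99 and 1.06 TPM at 24 h and had it listed at 0 in all 6 h and control libraries. That difference passed (adjusted p = 0.0304), but not without any one of the 3 control IPs (adjusted p from 0.0514 to 0.0637), and no fold is given against libraries at 0. Without any one of the 24 h IPs Mmp3 fell under the filter and was not tested. The call thus held only in the 3 leave-outs of a 6 h IP. Here too Mmp3 was tested through the 24 h libraries alone (adjusted p = 0.0284 with no filter). Sox2 IPs had 2.31, 1.91 and 0.695 TPM at 24 h against 0.0343 and 0 TPM without noise, which did not pass (adjusted p = 0.339). The macrophage marker sums given for Timp1 were above control at 24 h in all 4 fractions, as Mmp3 was, but were as high at 6 h in the Sox2 IPs, where Mmp3 was listed at 0. Their part was not tested.

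Mmp14, a transmembrane collagenase, was higher in the inputs at 6 h. Prestin inputs held 69.5, 58.2 and 57.9 TPM at 6 h against 45.5, 50.8 and 41.3 TPM without noise, and Sox2 inputs 106 and 102 TPM against 70.0 and 76.7 TPM. Groups did not overlap in either strain, and the difference was 0.45 ± 0.08 (adjusted p = 0.00376). The inputs at 24 h averaged 57.8 TPM, against 56.8 TPM in control inputs (adjusted p = 0.953).
Mmp11, which is made by stromal cells, moved the other way. Prestin inputs held 4.76, 2.84 and 2.35 TPM at 6 h against 5.13, 8.35 and 6.62 TPM without noise, and Sox2 inputs 4.13 and 5.03 TPM against 5.79 and 7.40 TPM. All 6 h inputs lay below all control inputs, and the difference was -0.69 ± 0.16 (adjusted p = 0.0135). At 24 h the inputs averaged 7.55 TPM, 0.83 ± 0.15 above those at 6 h (adjusted p = 0.00186). Mmp2 in the inputs was likewise 0.42 higher at 24 h than at 6 h, and neither time differed from control past the threshold.

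Mmp25 is a protease held in the membrane by a lipid anchor and known from leukocytes. Beside Mmp3 it was the other Mmp gene that passed in the Prestin IPs. These held 0, 0.296 and 0.451 TPM without noise, 2.21, 1.78 and 1.47 TPM at 6 h and 1.96, 3.17 and 2.29 TPM at 24 h. All 6 noise IPs lay above the controls, by 1.18 ± 0.25 at 6 h (adjusted p = 0.0404) and 1.48 ± 0.25 at 24 h (adjusted p = 0.0243). All 3 controls lay under 1 TPM, so Mmp25 was tested through the noise IPs alone, and with no filter the adjusted p was 0.0497 at 6 h and 0.0296 at 24 h. Leaving out any one of the 9 Prestin IPs ended the 6 h call (adjusted p from 0.0576 to 0.127), and leaving out any one of the 3 IPs at 24 h ended the 24 h call (0.0669 to 0.0933). The Prestin inputs overlapped, with 1.34 to 3.25 TPM without noise, 2.24 to 2.70 TPM at 6 h and 2.74 to 4.90 TPM at 24 h. The summed levels of 8 neutrophil markers in the Prestin IPs overlapped too, at 62.4 to 221 TPM without noise, 40.8 to 133 TPM at 6 h and 69.8 to 197 TPM at 24 h. The macrophage sum in these IPs was 87.7 to 132 TPM without noise, 82.7 to 148 TPM at 6 h and 215 to 339 TPM at 24 h, with Mpeg1 called at 24 h (1.65), so it lay above control at 24 h but overlapped at 6 h. Their part in the Mmp25 difference was not tested.

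The other Mmp genes did not pass in a comparison of noise with control. Mmp15, a transmembrane protease, had 129, 168 and 201 TPM in Sox2 IPs at 24 h, against 152 and 66.5 TPM in controls. Mmp28 had 19.2, 29.2 and 29.3 TPM in Sox2 IPs at 24 h against 9.12 and 15.7 TPM in controls. Mmp9 had 0.939 and 4.08 TPM in Sox2 IPs at 6 h against 0.0693 and 1.10 TPM, and inputs of both strains held 0.217 to 2.21 TPM of it. The collagenases Mmp8 and Mmp13 stayed at or under 2.28 and 1.58 TPM in every library.

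Over the whole family, 6 of the 20 genes tested in the inputs passed at 6 h, 5 higher (Adamts1, Adamts4, Timp1, Timp3 and Mmp14) and 1 lower (Mmp11), where 8.54% of all 14204 genes tested passed, 3.83% higher and 4.71% lower. The split over all genes was 544 higher and 669 lower, or 796 and 429 under median-of-ratios scaling. At 24 h 2 of 20 passed, Timp1 and Mmp3, both higher, against 4.44% of all genes and 3.78% upward. Between 24 h and 6 h 7 of 20 passed, 4 higher at 24 h (Timp1, Mmp3, Mmp11 and Mmp2) and 3 lower (Adamts1, Timp3 and Mmp14), against 16.1% of all genes, 12.6% higher and 3.48% lower (1790 higher and 494 lower, or 1040 and 810 under median-of-ratios scaling). With the 9 Prestin inputs alone, and so without the Sox2 libraries with fewer genes above 0, Adamts1 (2.16) and Timp3 (0.44) kept their calls at 6 h, and Timp1 (3.47) and Mmp3 (2.22) at 24 h. The median difference of the 20 genes was 0.03 at 6 h and 0.15 at 24 h, beside -0.09 and 0.02 over all genes tested.
In the Prestin IPs 2 of 28 tested genes passed at 6 h (Adamts1 and Mmp25), where 5.63% of all 16703 genes did and 0.856% did so upward. The 28 genes tested with Prestin IPs were 27 of the expressed genes and Adamts17, counted above as not expressed, while Mmp21 was not tested. The split was 143 higher and 797 lower, or 137 and 170 under median-of-ratios scaling. At 24 h 4 of 28 passed (Timp1, Timp2, Mmp3 and Mmp25), all higher, where 6.23% did and 1.10% did so upward (183 higher and 858 lower, or 233 and 340 under median-of-ratios scaling). Between 24 h and 6 h 1 of 28 passed (Adamts1, lower), where 0.102% of all genes did and 0.0419% did so downward. The medians of the 28 for 6 h and 24 h against control were 0.27 and 0.14, beside -0.17 and -0.15 over all genes.
In the Sox2 IPs 0 of 23 passed in limma at either time, where 0.694% of all 17577 genes passed at 6 h and 0.188% at 24 h. Without adjustment, 4 of 23 had p under 0.05 at 6 h and 5 at 24 h. Between 24 h and 6 h 0 of 23 passed, against 0.506% of all genes, and 6 of 23 had p under 0.05 without adjustment. Medians against control were 0.22 and 0.56, beside -0.07 and 0.14. A gene tested because it was high in the noise libraries alone counts in these shares. Both times share the control libraries.

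**Figure D4:**
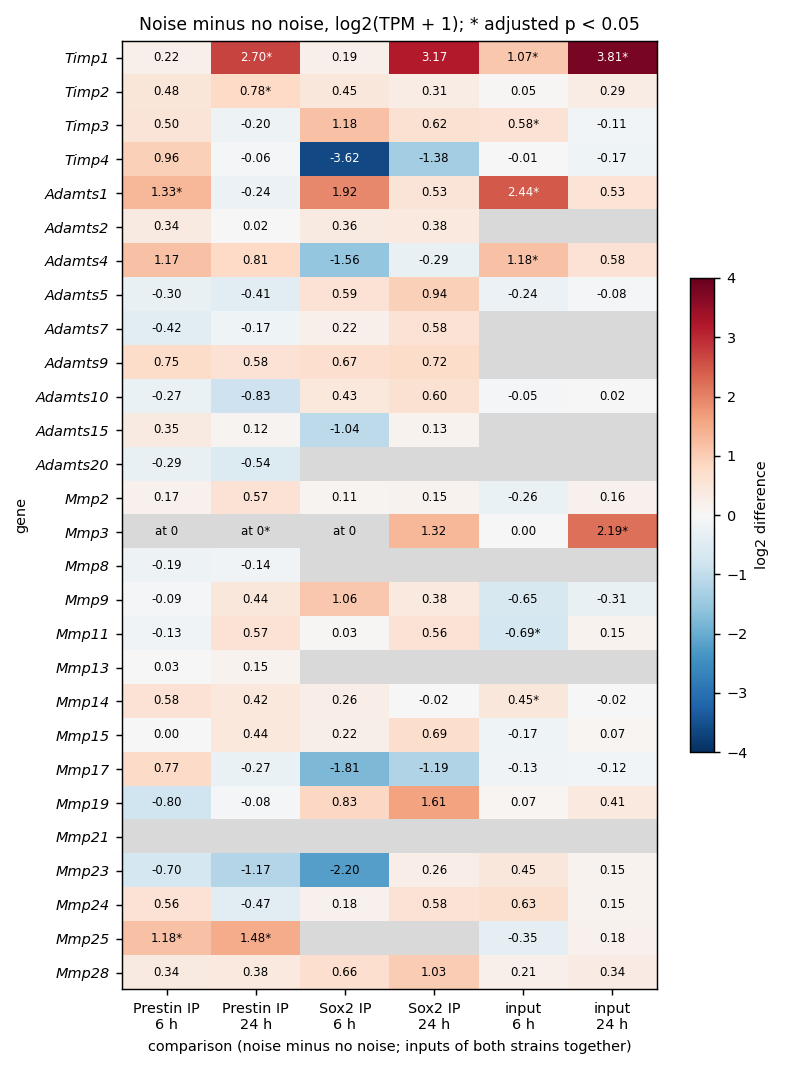
Difference of noise minus no noise on the log2(TPM + 1) scale for the 28 expressed genes (rows) in IPs of each strain and in inputs of both strains together (columns); colour and number give the difference, a star an adjusted p under 0.05, grey a gene not tested, and "at 0" a group listed at 0 throughout. Stars stand at Adamts1, Adamts4, Timp1, Timp3, Mmp14 and Mmp11 in the inputs at 6 h, at Timp1 and Mmp3 in the inputs at 24 h, and at 2 and 4 genes in the Prestin IPs.

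Responses themselves were compared with interaction terms. Between Prestin and Sox2 inputs 0 of 20 genes differed in their response at 6 h, where 1.17% of all genes did, and 0 of 20 at 24 h, where 0% did. Without adjustment, 4 of 20 and 1 of 20 had p under 0.05, the smallest for Mmp17 at 6 h (2.09 ± 0.60, adjusted p = 0.125) and Adamts5 at 24 h (-0.85 ± 0.24, adjusted p = 0.371). Between Prestin IPs and Sox2 IPs 0 of 26 passed at each time, against 0.388% and 0.091% of all genes, with 5 and 4 of 26 at an unadjusted p under 0.05. Without Sox2 input 4 at 6 h, the response of Mmp28 differed between the inputs (0.96 ± 0.21, Prestin minus Sox2, adjusted p = 0.0454), a fit in which the lone Sox2 library at 6 h is assumed to vary like the other groups.
Between the Prestin IP and its own input the response of 0 of 28 genes differed at 6 h, where 2.42% of all genes did, and 0 of 28 at 24 h, where 1.04% did, with 4 and 2 at an unadjusted p under 0.05. The smallest p-values at 6 h were those of Adamts1, whose IP response was lower than the input response by -0.83 ± 0.25 (adjusted p = 0.0859), and Mmp25, whose IP response was higher by 1.13 ± 0.34 (adjusted p = 0.0852). For the Sox2 strain the counts were 0 of 25 at each time, against 0.269% and 0.0485% of all genes, with 2 and 1 at an unadjusted p under 0.05. With all libraries in the fit, a difference of responses was thus not detectable for any of these genes in limma.

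More genes passed between IPs and inputs than between noise and control. In the Prestin strain 20 of 28 genes passed, 17 higher and 3 lower in IPs (10 higher and 9 lower under median-of-ratios scaling), where 76.1% of all 17363 genes did, 68.5% higher and 7.68% lower. The largest were Adamts10 (2.42 ± 0.14, means 16.9 and 2.33 TPM), Mmp11 (2.33 ± 0.13, 31.8 and 5.63 TPM), Adamts15 (2.13 ± 0.20), Adamts5 (2.01 ± 0.13), Mmp23 (1.95 ± 0.35) and Mmp28 (1.85 ± 0.10), in each case with the IP mean first. The 3 lower in IPs were Mmp25 (-0.73 ± 0.14), Mmp3 (-0.39 ± 0.15) and Timp2 (-0.26 ± 0.07).
In the Sox2 strain 16 of 25 passed, 15 higher and 1 lower (10 higher and 4 lower under median-of-ratios scaling), where 57.9% of all 18560 genes did, 55.2% higher and 2.72% lower. Here Adamts5 (2.30 ± 0.21), Mmp28 (2.09 ± 0.24), Mmp15 (1.96 ± 0.18), Adamts10 (1.90 ± 0.26), Adamts15 (1.77 ± 0.23) and Mmp17 (1.498 ± 0.253) were the largest, and Mmp25 was the gene lower in IPs (-0.75 ± 0.18). Mmp15 averaged 136 TPM over the Sox2 IPs, against 31.9 TPM in their inputs.

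These values hold relative to a general shift, since the median over all genes tested was 0.82 in the Prestin and 0.65 in the Sox2 strain. The medians of the family were 0.74 and 0.89. Median-of-ratios scaling, which sets the bulk of genes equal between libraries, brought the median over all genes to 0.05 and 0.02. Under it 5649 genes were higher and 5456 lower in Prestin IPs, and 3440 were higher and 3460 lower in Sox2 IPs. It turned the sign of Adamts1 (-0.73), Mmp2 (-0.16) and Mmp15 (-0.37) in the Prestin strain and of Adamts1 (-0.14), Mmp2 (-0.26) and Timp3 (-0.39) in the Sox2 strain. The aggrecanase Adamts5, Adamts10, Adamts15, Mmp11, Mmp14 and Mmp28 stayed higher in IPs and passed under that scaling in both strains. Timp1 did not pass in either strain, at -0.51 ± 0.29 (adjusted p = 0.117) in the Prestin and -0.25 ± 0.50 (adjusted p = 0.689) in the Sox2 strain.

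**Figure D5:**
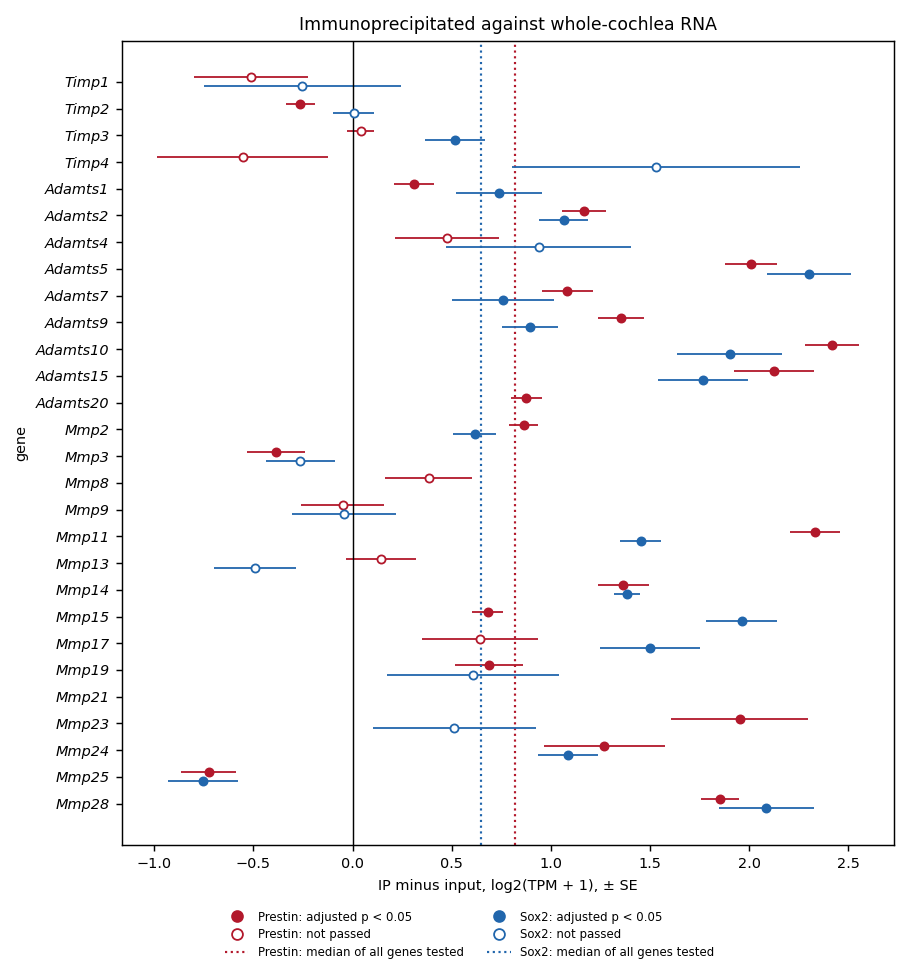
Difference of IP minus input on the log2(TPM + 1) scale (horizontal axis, with the SE of the fit) for the 28 expressed genes in the Prestin (red) and Sox2 (blue) strain; filled points had an adjusted p under 0.05, a missing point was not tested, and dotted lines mark the median of all genes tested, 0.82 and 0.65. Adamts10, Mmp11, Adamts15 and Adamts5 lie far to the right and Mmp25 to the left in both strains, and under median-of-ratios scaling Adamts1, Mmp2 and Mmp15 (Prestin) and Adamts1, Mmp2 and Timp3 (Sox2) fall to the other side of 0.

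Neighbouring genes of the pathway came from 4 lists. Of 16 regulators of these proteases tested in the inputs, 6 were higher and 1 lower at 6 h (median 0.13), beside 3.83% and 4.71% of all genes. Among those higher were the plasminogen activators Plau (1.502 ± 0.278) and Plat (1.12 ± 0.11), whose product plasmin can activate Mmp zymogens. Also higher were the hyaluronan receptor Cd44 (0.91 ± 0.11), the cell surface proteoglycan Sdc4 (0.76 ± 0.05) and the proprotein convertase Furin (0.38 ± 0.09), and Bsg, an inducer of Mmp genes, was lower (-0.18 ± 0.05). At 24 h 3 were higher, the uptake receptor Lrp1 (0.61 ± 0.10), Plat (0.52 ± 0.11) and Sdc4 (0.26 ± 0.05), and Bsg was lower (-0.17 ± 0.05).
In the Prestin IPs 3 of 16 were higher at 6 h, Plat (1.07 ± 0.24), Plau (0.92 ± 0.21) and Sdc4 (0.86 ± 0.14), and 0 passed at 24 h, beside 0.856% higher at 6 h and 6.23% in either direction at 24 h over all genes. Of 7 related Adam proteases tested in the inputs, 2 were higher at 6 h, Adam8 (0.98 ± 0.20) and Adam10 (0.28 ± 0.08), and 0 passed at 24 h. Of 2 Adamts-like genes 0 passed at either time. Over all genes 8.54% passed in the inputs at 6 h and 4.44% at 24 h, in either direction.

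Among 10 proteoglycan and link protein substrates tested in the inputs, 0 were higher and 2 lower at each time, read against the same 8.54% and 4.44%. Of all 14204 genes, 4.71% were lower at 6 h and 94 genes were lower at 24 h. Aggrecan (Acan) was lower by -0.73 ± 0.10 at 6 h (adjusted p = 3e-04) and by -0.47 ± 0.09 at 24 h (adjusted p = 0.00775), neurocan (Ncan) by -1.24 ± 0.32 at 6 h and decorin (Dcn) by -0.52 ± 0.13 at 24 h. In the Prestin IPs Acan averaged 6.28 ± 0.59 TPM without noise, 2.61 ± 0.21 TPM at 6 h and 2.55 ± 0.54 TPM at 24 h (SD, n = 3 each), a log2 difference from control of -1.01 ± 0.19 at 6 h and -1.04 ± 0.19 at 24 h. Brevican (Bcan) was lower there at 24 h by -1.28 ± 0.19, and lumican (Lum) was higher by 0.76 ± 0.17 at 6 h and 0.98 ± 0.17 at 24 h. Of 11 such substrates tested in these IPs, 1 was higher and 1 lower at 6 h, and 1 higher and 2 lower at 24 h. Over all genes 5.63% passed at 6 h (0.856% upward) and 6.23% at 24 h (1.10% upward). In the Sox2 IPs 0 genes of the 4 lists passed in limma at either time.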

How the data were processed

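The deposited values are TPM per gene and library, made by the authors from single libraries. Per the submitters' processing notes, reads were handled with TopHat and the build was GRCm38. Versions, counting tool, annotation and strand setting: not given in the sources used here, although the library kit is directional per the labels' protocols. TPM sums to 1000000 in each of the 32 libraries, so depth is unknown and a large change of few genes moves the values of all others.

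Groups follow the labels. limma 3.58.1 (R 4.3.3; lmFit, then eBayes with trend) was run on log2 of TPM plus a pseudocount of 1, with Benjamini-Hochberg adjustment over all genes tested and a threshold of 0.05. Fold changes are on that scale, which understates changes of low genes. Genes entered a test if they had 1 TPM or more in 5 (inputs), 3 (Prestin) or 2 (Sox2) libraries. For input comparisons, strain was a covariate over the 16 inputs. IP comparisons with noise used the IPs of a strain, and IP against input the mean over the 3 conditions. Genes listed for the Sox2 strain alone (4548) were left out of the fits of inputs alone and of those over both strains. They were kept in the fits of the Sox2 IPs, alone or with their inputs. The strain difference of the IP responses was added after the data were seen. The fit was tested on simulated data, with changes added only to genes above a set level. That test does not cover changes in genes near the floor.

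The 46 genes and the gene lists were chosen with earlier results of these data known. Some results are not reported here. Genes are named with values if they are Timp genes, Adamts1, Adamts4 or Adamts9, pass in a noise comparison, are among the 10 highest, or lead an enrichment, and others mostly by counts and ranges. Mmp9, Mmp8 and Mmp13, the genes next to the expression floor, and Adamts10 after noise were named after their values were seen. Positions and overlaps are from GENCODE M21, promoters from RefSeq (GRCm38.p6, windows for 32 of the 46 genes). P-values measure the spread between libraries. IP and input of a number come from 1 homogenate, and their deviations from the group means correlated with r from 0.021 to 0.273 in the Prestin and from 0.045 to 0.171 in the Sox2 strain. Files were read with pandas 2.3.3 and NumPy 2.4.6 in Python 3.11.15, and figures drawn with matplotlib 3.10.9.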

Additional observations from a re-analysis of the deposited data

How the results depend on the processing

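The number of genes of the family that passed was recomputed under other settings, and depth could not be weighed since TPM keeps none. In the inputs at 6 h (6 genes) 2 passed with Prestin inputs alone and 1 with Sox2 inputs alone. At 24 h (2 genes) 0 passed with Sox2 inputs alone, and between 24 h and 6 h (7 genes) 4 did. In the Prestin IPs a pseudocount of 0.1 left 1 of 2 at 6 h and 2 of 4 at 24 h, and median-of-ratios scaling left 1 at 6 h. Between 24 h and 6 h, where 1 passed, no filter and median-of-ratios scaling each left 0. For Sox2 IP against input (16 genes), 26 passed with no filter and 9 in the control libraries alone. Leaving out single libraries gave 0 to 1 in Prestin IPs at 6 h, 0 to 4 at 24 h, 0 to 1 between the times, and 0 to 1 for the strain difference of the input response at 6 h. The cause was not tested.

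Libraries of the same replicate number in different noise groups correlated in their deviations with a median r of 0.04 in Prestin inputs and -0.01 in Prestin IPs. For different numbers the medians were -0.02 and 0.002. IP and input of the same homogenate reached a median r of only 0.06 (Prestin) and 0.05 (Sox2). The check therefore cannot decide whether the numbers pair the noise groups, and the Sox2 noise groups were not checked. With the number as a replicate block, 3 genes passed in the inputs at 6 h, and 0 in the Prestin IPs at 6 h, at 24 h and between the times. With the homogenate as a block, Adamts7 (Sox2, adjusted p = 0.0527) and Mmp3 (Prestin, adjusted p = 0.0512) no longer passed in IP against input.

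Signs turned under median-of-ratios scaling for Adamts1 (-0.73), Mmp15 (-0.37) and Mmp2 (-0.16) in Prestin IP against input, and for Adamts1 (-0.14), Mmp2 (-0.26) and Timp3 (-0.39) in Sox2 IP against input. Among values that had not passed, Timp1 in Sox2 IPs at 6 h was -0.12 with a pseudocount of 0.1 and between -1.24 and 1.63 without single libraries. Timp1 in Prestin IPs at 6 h lay between -0.46 and 0.87, and Adamts4 in Sox2 IPs at 24 h between -0.78 and 0.20. Of 953 refits of the 58 values that had passed, 841 kept direction and call, 106 lost the call and 6 turned. Refits in which a gene was no longer tested are not among these.

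Counts over all genes moved by more than 1.5 times as follows. The 1213, 631 and 2284 genes of the inputs (6 h, 24 h, and 24 h against 6 h) became 143, 0 and 497 with Sox2 inputs alone and 643, 329 and 1016 with the replicate block, and the 1213 and 2284 became 661 and 1354 with Prestin inputs alone. In the Prestin IPs the 940 genes at 6 h became 307 under median-of-ratios scaling, 415 with no filter and 91 with the block, the 1041 at 24 h became 573 under that scaling and 106 with the block, and the 17 between the times became 0 with no filter or the block. In the Sox2 IPs the 122 at 6 h became 242 with the pseudocount of 0.1 and 66 with no filter, and the 89 between the times 158, 23 and, under median-of-ratios scaling, 43. For Sox2 IP against input the 10746 became 6900 under that scaling and 4655 in control libraries alone. For the differences of responses, the 420 and 181 genes of the Prestin IP minus its input (6 h and 24 h) became 35 and 26 with the pseudocount of 0.1, 47 and 24 under median-of-ratios scaling, 276 and 73 rescaled without mitochondrial genes and Malat1, and 28 and 20 with the homogenate block. The 50 and 9 of the Sox2 IP minus its input became 79 and 33 with no filter and 3 and 2 with that block, and the 9 became 5 with the pseudocount of 0.1. Between strains, the pseudocount of 0.1 gave 270 for 166 and 2 for 0 in the inputs and 121 for 64 and 23 for 15 in the IPs, no filter gave 6 for 0 in the inputs at 24 h and 114 and 49 in the IPs, and median-of-ratios scaling gave 119 in the IPs at 6 h. Leaving out single libraries moved counts over all genes too, to 81 to 798 in the Prestin IPs at 6 h, 70 to 986 at 24 h and 0 to 37 between the times, and to 4 to 75, 0 to 30 and 0 to 96 in the Sox2 IPs. The inputs gave 783 to 1619, 443 to 870 and 1740 to 2441. For the Prestin IP minus its input they gave 32 to 819 and 15 to 413, and for the Sox2 IP minus its input 4 to 454 and 7 to 34. Between strains the ranges were 52 to 2090 (the highest without Sox2 input 2 at 6 h) and 0 to 34 in the inputs, and 30 to 252 and 8 to 185 in the IPs, so the shares over all genes beside the family's counts move with single libraries.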

Other observations

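One homogenate of the Prestin strain, number 2 at 6 h, stood apart in several genes of the family in both of its libraries. Among the 9 Prestin IPs it held the highest value of 6 of the 28 expressed genes (Adamts15, Adamts2, Adamts4, Mmp17, Mmp24 and Timp4), and among the 9 Prestin inputs that of 7 (Adamts10, Adamts15, Adamts4, Mmp17, Mmp23, Mmp24 and Timp4). Other libraries came close or equal, with 5 in Prestin IP 2 at 24 h and 7 in Prestin input 1 at 24 h. The counts alone thus do not set this homogenate apart, and the share over all genes was not counted. Mmp24, a membrane-type protease found in nervous tissue, stood at 26.0 TPM in its IP, against 3.33 to 6.45 TPM in the other Prestin IPs, and at 8.39 TPM in its input, against 1.02 to 1.76 TPM in the other Prestin inputs. Mmp17, held in the membrane by a lipid anchor, stood at 7.37 TPM in its IP and 2.91 TPM in its input, against at most 2.77 TPM and 1.38 TPM in the others. The synapsin gene Syn1, a neuronal gene, was also highest there, with 9.99 TPM in the IP, against 3.69 to 7.86 TPM in the other Prestin IPs, and 9.03 TPM in the input, against 3.04 to 5.66 TPM in the other Prestin inputs. No difference of 6 h against control passed for Timp4, Mmp17 or Mmp24 in the Prestin IPs or in the inputs.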
